A study of Mus musculus with 28 samples.

Results

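Dense groups of Ldb1 regions are stretches of the genome of mouse mature olfactory sensory neurons in which binding sites of the cofactor Ldb1 lie close together. Ldb1 peaks of the 3 control libraries were linked where they shared 1 base or more, and linked peaks from at least 2 of those libraries made a control Ldb1 region, of which there were 22789. Regions were chained when the gap to the next was at most 12.5 kb, and chains of 4 or more regions were kept. This gave 2609 dense regions in 536 groups, which is 11.4% of all control Ldb1 regions. With 1 control library left out, a region had to be found in both that remained. This gave 1053 dense regions in 219 groups without control replicate 1 and 1016 in 209 without control replicate 2. The members were therefore chosen from the control Ldb1 peaks themselves, and what is said of control binding below is a description with no test.

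Ldb1 was also mapped in 2 libraries of Lhx2 KO neurons, which carried OMP-IRES-Cre together with Lhx2fl/fl and the Rosa-CAG-tdtom+/fl reporter. In these mice Cre acts from the Omp gene, which is switched on as the neuron matures, so Lhx2 is lost late. A further 2 Ldb1 libraries came from Olfr1507+ cells, neurons sorted from M28-IRES-GFP mice by the reporter of a single odorant receptor. The 3 control Ldb1 libraries, 2 libraries for Rad21 and 2 for CTCF came from OMP-IRES-GFP neurons, which carry neither the Cre nor the floxed alleles. All were made from formaldehyde-fixed, sorted cells of the main olfactory epithelium, and the same Ldb1 antibody was used throughout. The labels give no age for these mice, and no expression table was used here, so the cell type was checked only through the genes beside the regions.

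Ldb1 does not bind DNA. It dimerises and is carried to chromatin by LIM-homeodomain factors such as Lhx2 and by LIM-only proteins that join it to other factors, and it is known for holding distant enhancers and promoters together. In olfactory neurons Lhx2 and Ebf proteins occupy enhancers of odorant receptor genes, and Ldb1 is recruited there. Rad21 is a subunit of cohesin, the ring that extrudes chromatin loops, and CTCF is the DNA-binding protein at which extrusion commonly stops.

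Some dense regions lay over gene starts, and their sequences are shown because they place the DNA of a dense region beside the gene it covers. Of 32851 RefSeq windows (GRCm38.p6, 250 bases before to 50 bases after a start), 109 windows of 98 genes in 81 groups overlapped a dense region, and 1809 overlapped another control Ldb1 region. Each is 5′ to 3′, with motif matches in capitals. Uncx encodes a homeodomain factor, Umodl1 an extracellular protein and Clip4 a relative of microtubule-binding proteins; they are among the 6 windows under the strongest dense regions with a window. Emx2, a homeobox regulator of olfactory neurons, and Pde4a, a cyclic AMP phosphodiesterase, belong to the gene lists used below and were added after their values were seen; of 7 listed genes with such a window, Slc24a4, Ric8b, Ebf4 and Cacna1b had no motif match and are not printed, so the printed windows all hold a match by choice.
Uncx, chr5:139543648-139543947, plus strand: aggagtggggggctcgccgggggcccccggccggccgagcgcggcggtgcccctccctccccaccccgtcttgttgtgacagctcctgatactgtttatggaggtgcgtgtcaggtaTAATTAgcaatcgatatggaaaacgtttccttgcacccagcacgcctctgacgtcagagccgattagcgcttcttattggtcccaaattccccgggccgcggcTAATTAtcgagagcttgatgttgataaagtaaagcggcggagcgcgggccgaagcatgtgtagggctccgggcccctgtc
Umodl1, chr17:30954433-30954732, plus strand: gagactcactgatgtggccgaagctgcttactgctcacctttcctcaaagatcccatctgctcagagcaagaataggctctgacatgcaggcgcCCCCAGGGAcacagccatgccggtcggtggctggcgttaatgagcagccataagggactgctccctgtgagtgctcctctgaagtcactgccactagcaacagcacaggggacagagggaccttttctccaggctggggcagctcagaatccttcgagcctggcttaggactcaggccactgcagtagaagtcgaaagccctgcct
Clip4, chr17:71769441-71769740, plus strand: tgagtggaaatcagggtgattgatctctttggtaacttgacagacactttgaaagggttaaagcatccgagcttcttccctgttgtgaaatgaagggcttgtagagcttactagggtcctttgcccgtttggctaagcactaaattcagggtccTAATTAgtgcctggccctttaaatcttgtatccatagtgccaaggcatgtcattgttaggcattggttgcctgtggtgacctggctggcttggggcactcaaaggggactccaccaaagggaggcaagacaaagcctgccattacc
Emx2, chr19:59458440-59458739, plus strand: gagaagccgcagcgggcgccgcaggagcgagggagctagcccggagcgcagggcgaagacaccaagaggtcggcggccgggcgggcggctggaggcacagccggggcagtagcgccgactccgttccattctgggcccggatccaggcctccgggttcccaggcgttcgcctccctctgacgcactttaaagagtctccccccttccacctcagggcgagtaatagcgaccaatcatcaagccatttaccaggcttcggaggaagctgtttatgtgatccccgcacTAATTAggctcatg
Pde4a, chr9:21183851-21184150, plus strand: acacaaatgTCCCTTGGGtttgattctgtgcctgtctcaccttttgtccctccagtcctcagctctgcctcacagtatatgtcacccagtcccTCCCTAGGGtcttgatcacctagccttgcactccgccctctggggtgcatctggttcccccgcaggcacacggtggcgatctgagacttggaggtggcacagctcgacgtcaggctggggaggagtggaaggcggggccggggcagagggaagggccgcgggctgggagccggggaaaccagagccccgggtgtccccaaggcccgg

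The motifs searched on both strands were TAATTA and TAATTG, cores of LIM-homeodomain sites, and TCCCNNGGG, most of the palindrome bound by Ebf factors. TAATTA reads the same on both strands, and a match of TAATTG on the other strand (CAATTA) can share bases with it. The Uncx window held 2 TAATTA matches, Clip4 and Emx2 held 1 each, Pde4a held 2 Ebf matches and Umodl1 held 1. Among the 109 windows with a dense region, 9 held TAATTA (8.26%), 10 TAATTG (9.17%) and 12 the Ebf motif (11%). Among the 1809 windows with another Ldb1 region these shares were 7.19%, 14.1% and 10.7%, and among all 32851 windows 5.29%, 8.00% and 6.56%. Any of the 3 motifs was found in 25.7% of windows with a dense region, 28.9% of windows with another region and 18.5% of all windows. TAATTA and the Ebf motif were thus more frequent at Ldb1-bound starts of both kinds than at all starts. TAATTG was near the share of all starts at dense regions and above it at other regions. The counts at dense regions are small, and no test was made. A match is a description of the letters, not evidence of binding.

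Most groups were small. Of the 536 groups, 313 had 4 regions, 112 had 5, 47 had 6, 30 had 7 and 34 had 8 or more, while 12298 regions stood alone, 2717 groups were pairs and 816 had 3. The longest had 18 regions, at Ebf2, and the next 12, at Mbnl2. Groups spanned a median of 22.8 kb (quartiles 17.8 and 29.6 kb, lowest 5.34 kb, highest 86.4 kb) and 13.5 Mb in all. Neighbours inside a group were a median of 5.88 kb apart, against 33.1 kb between neighbouring control regions in the whole genome. The limit on the gap fell in a continuous range. Gaps just inside it were 12.494, 12.497 and 12.499 kb and just outside 12.503, 12.503 and 12.505 kb, with 373 gaps in the last 1 kb below the limit and 344 in the next 1 kb above. Regions in groups of 4 had a median control score percentile of 52.0 and those in groups of 3 a median of 51.6, so the step that defines a dense group did not divide strong from weak sites.

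**Figure D1:**
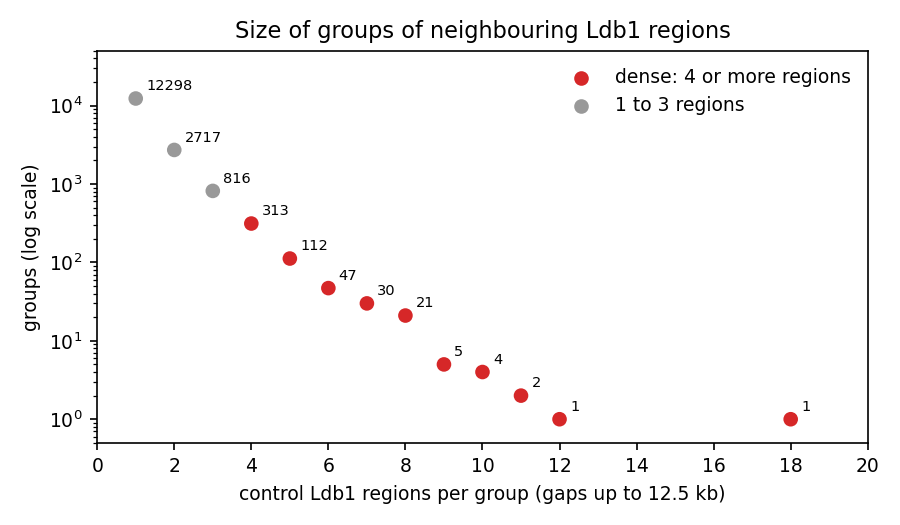
Number of groups (vertical axis, log scale) by the number of control Ldb1 regions in the group (horizontal axis); red points are dense groups and the number beside each point is its count. The counts become smaller with size, with 313 groups of 4 regions, and 1 group of 18 regions stands apart from the next largest, 12.

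The strength of a region was taken as its score percentile within each control list, averaged over the 3 lists with an absent peak counted as 0. Dense regions had a median percentile of 55.1 (quartiles 30.6 and 79.5), against 44.1 (23.1 and 72.1) in the 20180 other regions. Peaks of control replicates 1, 2 and 3 were at 97.1%, 98.3% and 75.7% of dense regions, against 97.6%, 99.1% and 67.7% of the others, with 97.5%, 99% and 68.6% over all control regions. All 3 control lists held 71.1% of dense regions, against 64.4% of the others, and 25.9% of them lay in the strongest quintile of all control regions, against 19.2%. Median percentile was 41.1 for lone regions and 67.9 for regions in groups of 8 or more. Members of a group were nonetheless unequal. The strongest member had a median percentile of 87.5 and the weakest 21.1, and the median spread from weakest to strongest within a group was 58.5 points.

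Dense regions lay mainly inside genes and away from their ends. A gene body held 81.6% of dense regions, against 68.2% of the other regions, with 69.7% over all control regions; for protein-coding genes the shares were 76.2% and 60.7% (62.5% over all). Within 1 kb of a gene end lay 10.7% of dense regions, against 16.3% of the others (15.7% over all). In 312 groups every member was in the body of the same protein-coding gene, and no gene body held 18.4% of dense regions, against 31.8% of others (30.3% over all), whereas 75 groups had no member in a protein-coding gene and 38 had none in any annotated gene. Dense regions made up 14.9% of the control regions of chromosome 12, 14.7% on chromosome 5 and 5.11% on chromosome X. Clusters of odorant receptor genes were nearly free of them: of the 167 control regions in 43 clusters (0.733% of all), 4 were dense, all in the Fmn2 group. That group, 5 regions over chr1:174522729-174553722 in the body of Fmn2, which encodes an actin-nucleating formin, had 4 of its regions inside a receptor cluster, counted with 100 kb on either side.

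A gene was given a dense region when 1 lay in its body or within 10 kb, which held for 552 of 21775 protein-coding genes, or 2.54%. Of the 8632 genes with any control Ldb1 region (39.6% of all), 6.39% had a dense one. These genes were long, with a median body of 66.4 kb, against 17.2 kb for all protein-coding genes. The share of genes with a dense region was 0.840% for bodies up to 10 kb, 1.74% from 10 to 30 kb, 3.12% from 30 to 100 kb, 7.43% from 100 to 300 kb and 13.8% above 300 kb, so the median body length of a list is given with its count. The genes with most dense regions in their bodies were Auts2 (28 of its 55 control regions, in 6 groups), Ebf2 (27 of 28, in 3 groups), Msi2 (27 of 37, in 3 groups), Enox1 (21 of 33, in 4 groups) and Plxna4 (17 of 32, in 3 groups). Auts2 encodes a chromatin-associated regulator of neuronal development, Msi2 an RNA-binding protein and Plxna4 a semaphorin receptor. They differ in how much of their binding was dense: nearly every region in the 198 kb Ebf2 body belonged to a dense group, whereas the dense regions of Auts2 were scattered over 1106 kb among other regions.

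The regulators of olfactory neuron identity were led by the Ebf family of helix-loop-helix transcription factors. Of 22 listed regulators, 7 (31.8%) had a dense region, with a median body of 85.1 kb over the list: Ebf1, Ebf2, Ebf3, Ebf4, Lhx2, Uncx and Emx2. All 4 Ebf genes are in this count. The share was 2.54% over all protein-coding genes and 3.12% for bodies of 30 to 100 kb. The largest Ebf2 group had the highest summed rank of all 536, with 1388 percentile points summed over its 18 members, where the median group had 244 and the lowest 66.4. It covered chr14:67234353-67318454, entirely within Ebf2, and its members had percentiles between 35.8 and 95.5. All 18 were found in every control library. The strongest, chr14:67278393-67278759, was at place 1145, 1028 and 834 in the 3 control lists, which hold 24877, 28879 and 16067 peaks.

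The larger of the 2 Ebf3 groups had 8 members over chr7:137208272-137253203, all within Ebf3. Its members were unequal, with percentiles of 24.2 and 36.1 for the first 2 along the chromosome. The next had 78.5 and the other 5 had 90.7 to 99.9. Its strongest region was at places 17, 20 and 14 in the control lists, so a site among the highest-scoring of the genome sat in a dense group. A second group at Ebf3, 5 regions over chr7:137288122-137320197, ran from 26.7 to 86.9. The larger of the 2 Ebf1 groups had 8 members over chr11:44617021-44666074, 7 of them in the body, with percentiles from 49.3 to 95.0 and every member in every control list. The other, 7 regions over chr11:44766812-44794693, was less even, from 12.1 to 98.0. The Lhx2 gene itself had a group of 4 over chr2:38335828-38367336, 3 of them in its body, with percentiles from 23.4 to 96.4. At Uncx, 6 regions spanned chr5:139536900-139563489, 1 of them in the gene body. The strongest (percentile 92.6) covered the start whose sequence is printed above, with both TAATTA matches.

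Genes of olfactory signal transduction, the cascade that turns receptor activation into a current, had the largest share among the 14 lists. Over all protein-coding genes the share with a dense region was 2.54%, and for bodies of 30 to 100 kb it was 3.12%. In the list, 11 of 20 genes had one (55%), with a median body of 67.8 kb. They were Adcy3 (the adenylyl cyclase of the cilium), Gnal (the olfactory G protein alpha subunit), Gnb1 (a G protein beta subunit), Ric8b (which assists that alpha subunit), Ano2 (the calcium-activated chloride channel), Slc24a4 (a sodium, calcium and potassium exchanger), Pde1c and Pde4a (phosphodiesterases), Stoml3 (a stomatin-like membrane protein of the cilium), and Rtp1 and Reep1 (receptor transport proteins). The Stoml3 group was the strongest of these, with 7 members over chr3:53465675-53509828, 3 of them in the gene body. Its percentiles ran from 69.5 to 96.7 and all 7 members were in every control list. The larger Adcy3 group had 6 members over chr12:4178999-4201936, all in the gene, with percentiles from 66.2 to 98.3. Of 8 members at Ano2, chr6:125782198-125825650, the strongest reached only 83.3 and the weakest 39.2. The Ric8b group, chr10:84895983-84937208, had 7 members, 4 of them in the gene body, with percentiles from 39.3 to 98.4. A second Adcy3 group, 4 regions over chr12:4121937-4143763, ran from 23.7 to 97.2. The Stoml3 group and the larger Adcy3 group thus had no member below 66.2, while the smaller Adcy3 group, Ano2 and Ric8b mixed strong with weak members.

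Genes of axon guidance and adhesion had a dense region in 9 of 24 cases (37.5%), with a median body of 277 kb over the list. The share was 2.54% over all protein-coding genes and 7.43% for bodies of 100 to 300 kb. Ncam1, a neural adhesion molecule, held 3 groups in its 297 kb body. The middle of them, 5 regions over chr9:49742599-49757195, had the highest summed rank of the 3, at 420, with percentiles from 50.8 to 96.1. The others had 6 regions each, summed ranks of 341 and 236 and strongest members at 82.9 and 64.4. Plxna4 had its strongest group at chr6:32534565-32577808, with 6 regions and percentiles from 18 to 99.6. The Dscaml1 group, chr9:45432556-45470651, had 6 regions between 30.2 and 86.4 in a gene for a homophilic adhesion protein.

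Of the genes of presynaptic release, 4 of 16 had a dense region (25%, median body 81.7 kb). Over all protein-coding genes it was 2.54%, and for bodies of 30 to 100 kb 3.12%. Cadps2, a priming factor of dense-core vesicles, had 8 regions over chr6:23280720-23324800 with percentiles from 13.0 to 96.6. Snap25, the SNARE protein, had 5, with its strongest (93.7) at the first position. Syt1 and Rims1 had 4 each. Among sodium, calcium and potassium channels 3 of 20 were counted (15%, median body 157 kb), against 7.43% for bodies of 100 to 300 kb. They were Cacna2d1, Cacna1b and Scn9a, with summed ranks of 323, 224 and 175. Of 12 markers of immature neurons, 2 were counted, Ncam1 and Stmn4 (16.7%, median body 51.1 kb), against 3.12% for bodies of 30 to 100 kb. Of 21 genes of LIM domain and Ldb1 complex proteins 2 were, Lhx2 and Lmo2 (9.52%, median body 24.0 kb). For bodies of 10 to 30 kb the share was 1.74%. Lists of other cells and tissues hold short genes, for which dense regions were scarce in general. None of 14 basal and progenitor markers had a dense region (median body 9.36 kb). Of 15 sustentacular and gland markers 1 did, Muc5b (6.67%, median body 7.75 kb), and of 15 glial, immune and vascular markers 1 did, Aif1 (6.67%, median body 10.9 kb), against 2.54% of all protein-coding genes and 0.840% of those with bodies up to 10 kb. No gene of the 20 of other tissues (median body 7.13 kb), the 16 housekeeping genes (6.64 kb), the 1105 odorant receptor genes (0.951 kb) or the 350 vomeronasal receptor genes (0.960 kb) had one. Neither Muc5b nor Aif1 held a dense region in its body, and each had 1 within 10 kb. The group beside Muc5b, 8 regions over chr7:141876271-141921505, had 4 members in the body of Tollip, and the group of 4 beside Aif1, chr17:35148166-35163628, had 3 in the body of Prrc2a and a summed rank of 134, below the median group.

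Other groups of high summed rank were at Gm10432, Mbnl2, Mapk4, Kcnc4, Gm46926, Msi2 and Dcdc2a. The Gm10432 group of 11 regions lay at chr12:100231693-100297261, with no member in a protein-coding gene; the nearest such gene was Ttc7b, 3.51 kb beyond the group. Gm46926 named a group of 8 regions at chr5:139648255-139695217, which lay 11.5 kb from Micall2, the nearest protein-coding gene, and had no member in one. Mbnl2, an RNA splicing regulator, had 12 regions over 86.4 kb, 10 of them in its body, with percentiles from 27.1 to 97.9. At Kcnc4, a voltage-gated potassium channel, 8 regions over chr3:107429850-107461238 lay between 60.4 and 96.9, with 4 of them in the gene body. Dcdc2a, a doublecortin-domain protein, had 8 regions between 35.8 and 98.6. At the strongest Msi2 group members were very unequal: 11 regions had a median percentile of 47.6, yet 1 of them, chr11:88540251-88540598, reached 99.8 and the weakest 6.53.

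**Figure D2:**
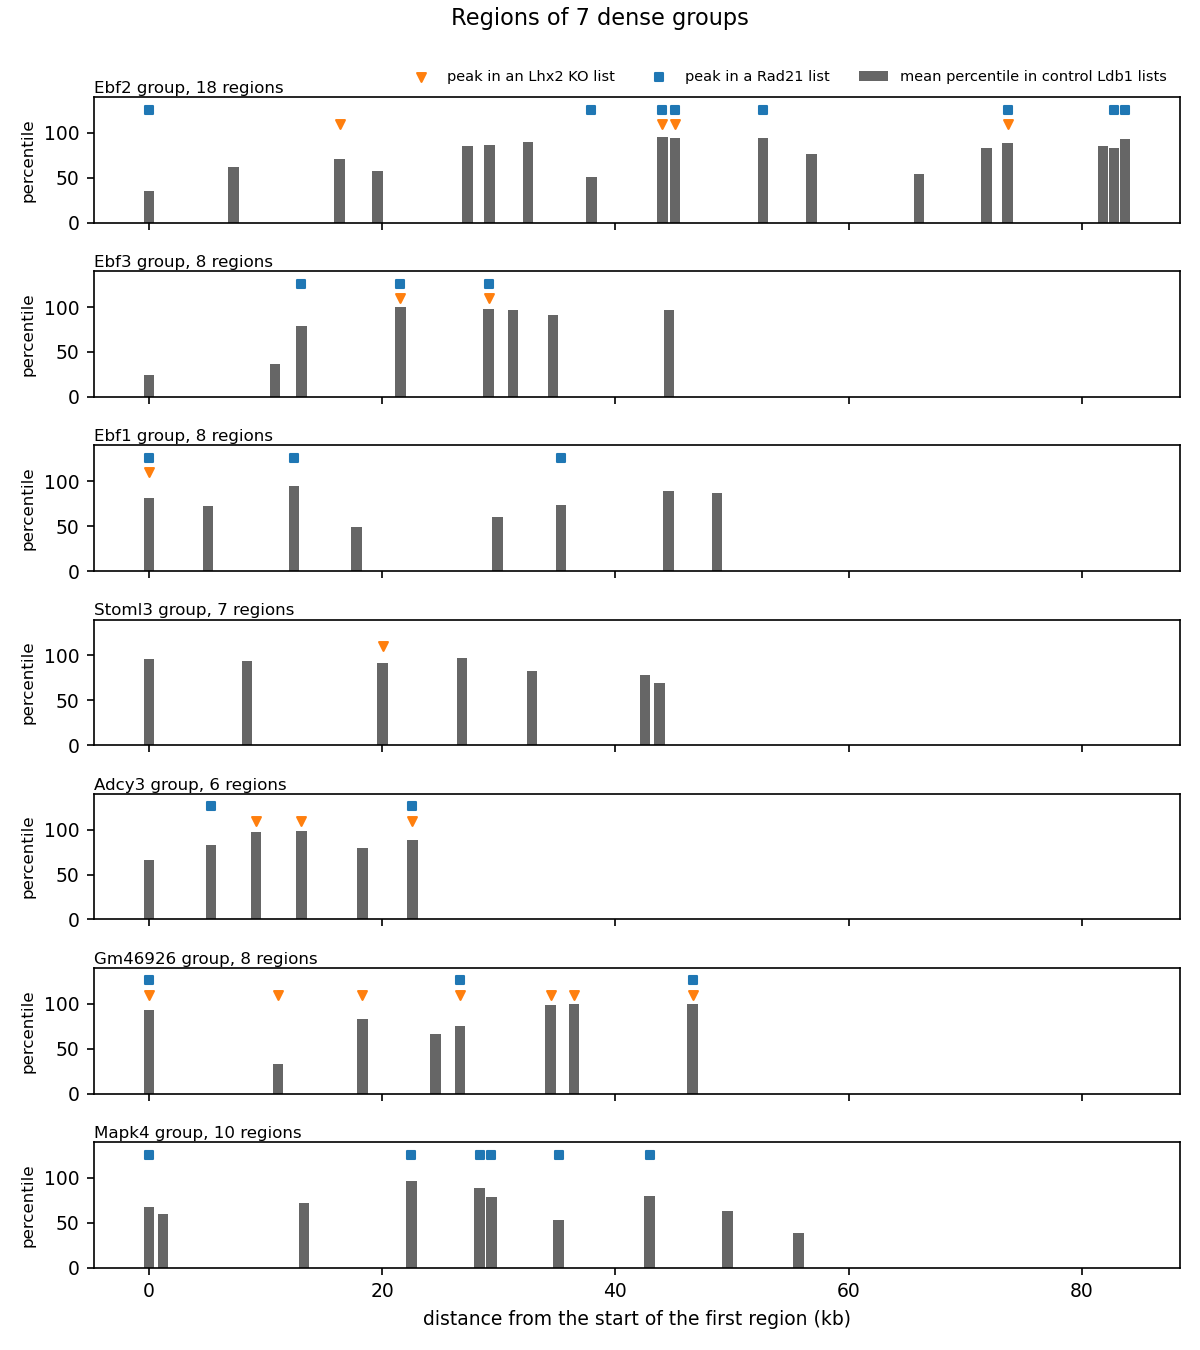
Regions of 7 dense groups by distance from the start of the first region (horizontal axis, kb), with the mean score percentile in the 3 control Ldb1 lists as bar height; bars are drawn wider than the regions. Triangles mark regions with a peak in an Lhx2 KO list and squares regions with a peak in a Rad21 list. The Gm46926 group has a triangle at 7 of its 8 regions, Mapk4 has none, and Stoml3 has no square.

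Rad21 was found more often at dense regions than at other control Ldb1 regions, in both libraries. In Rad21 replicate 1, 191 of 2609 dense regions had a peak (7.32%, 95% Wilson interval 6.38 to 8.38), against 794 of 20180 other regions (3.93%, 3.68 to 4.21), and 4.32% of all control regions. In Rad21 replicate 2, 873 dense regions had a peak (33.5%, 31.7 to 35.3), against 4442 other regions (22.0%, 21.4 to 22.6), and 23.3% of all. CTCF differed less. Its peaks were at 138 dense regions (5.29%, 4.49 to 6.22) in replicate 1, against 946 others (4.69%, 4.40 to 4.99), with 4.76% of all, and at 262 dense regions (10.0%, 8.95 to 11.3) in replicate 2, against 1839 others (9.11%, 8.72 to 9.52), with 9.22% of all. The intervals cover counting error only and neighbouring regions share chromatin, so they are too narrow to serve as a test.

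As a ratio of shares, dense over other, the Rad21 libraries gave log2 values of 0.90 and 0.60 and the CTCF libraries 0.17 and 0.14. The means were 0.75 for Rad21 and 0.16 for CTCF, a difference of 0.59, and the Rad21 values did not overlap the CTCF values. With 2 libraries against 2, the two-sided exact permutation test over libraries gave p = 0.333, the smallest it can give, and an adjusted p of 1 over the 4 comparisons made. The difference of these factors is therefore not established beyond the libraries, which the labels do not say came from separate animals.

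Much of this Rad21 was apart from CTCF, as it was at other regions. Rad21 in either library was at 891 dense regions (34.2%) and 4549 others (22.5%), with 23.9% over all. A Rad21 peak in either library without a CTCF peak in either was found at 658 dense regions (25.2%), against 3137 others (15.5%), with 16.7% over all control regions. Both factors were found at 8.93% of dense regions, against 7.00% of others (7.22% over all), CTCF without Rad21 at 1.49%, against 2.45% (2.34% over all), and neither at 64.4%, against 75% (73.8% over all). CTCF in either library was at 10.4% of dense regions, against 9.45% of others (9.56% over all), and in both at 4.91%, against 4.35% (4.41% over all). Both Rad21 libraries had a peak at 173 dense regions (6.63%), against 687 others (3.4%), with 3.77% over all.

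**Figure D3:**
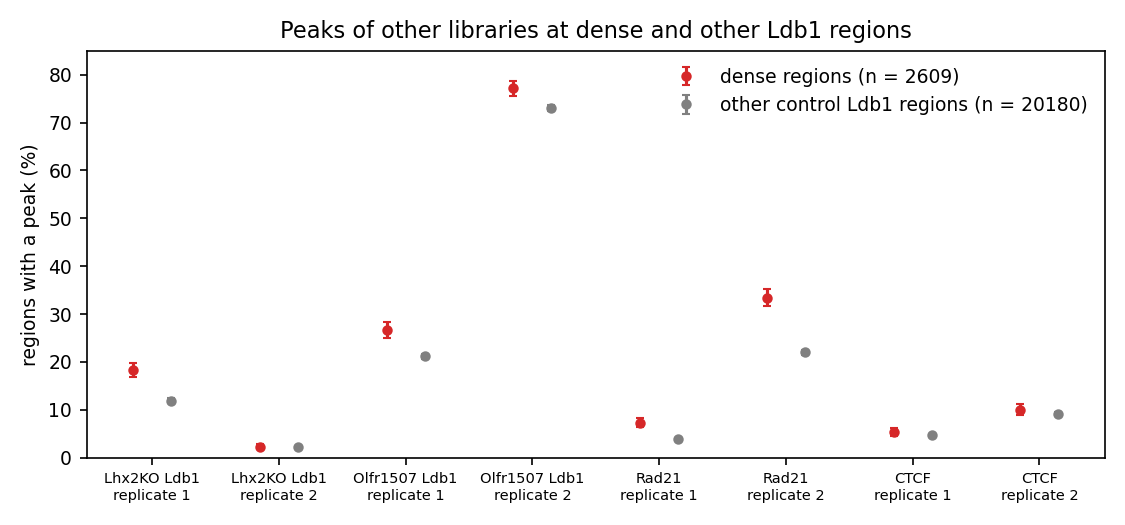
Share of regions with a peak (vertical axis, percent) in each of 8 libraries that did not choose the regions; red points are the 2609 dense regions and grey points the 20180 other control Ldb1 regions, with 95% Wilson intervals. Rad21 replicate 2 was at 33.5% of dense and 22.0% of other regions, while the CTCF points lie close together.

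The share with Rad21 was higher in larger groups. In Rad21 replicate 2 it was 19.2% for lone regions, 25.2% in pairs, 29.0% in groups of 3, 31.4% in groups of 4, 33.0% in groups of 5, 37.2% in groups of 6 to 7 and 36.7% in groups of 8 or more. In Rad21 replicate 1 it was 3.6% for lone regions and 8.85% in groups of 8 or more. CTCF replicate 2 stayed between 8.04% and 11% over the same sizes, with no order. The share was already higher in pairs and groups of 3, so the limit of 4 marks no step. Median control score also differed over these sizes, as given above, and the shares were therefore set side by side within quintiles of control score.

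**Figure D4:**
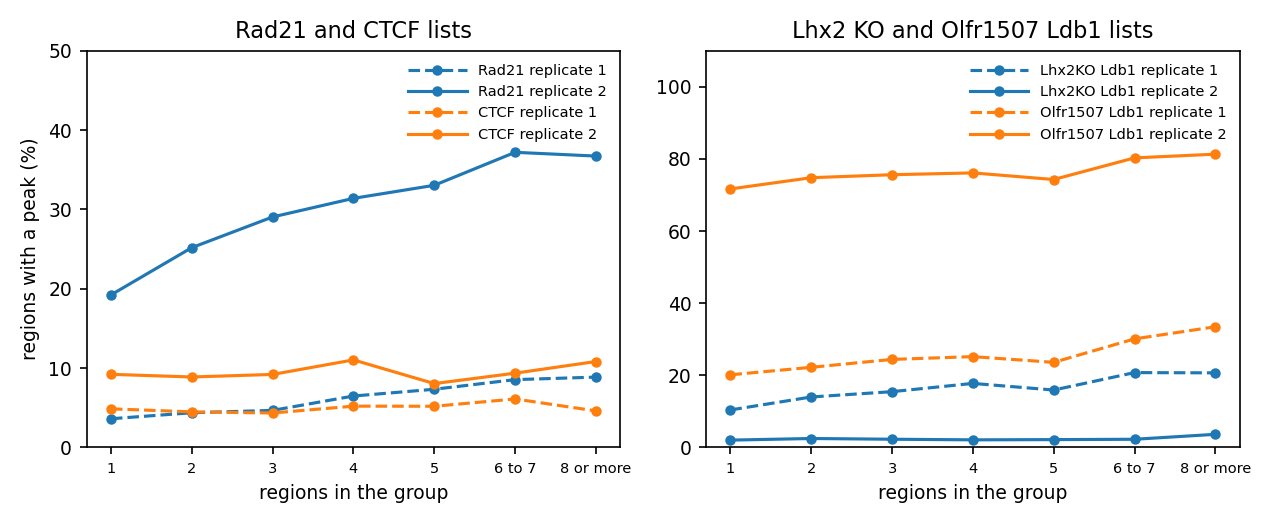
Share of regions with a peak (vertical axis, percent) by the number of regions in their group (horizontal axis), with Rad21 and CTCF on the left and the Lhx2 KO and Olfr1507 Ldb1 lists on the right; dashed lines are replicate 1 and solid lines replicate 2. Rad21 replicate 2 is at 19.2% for lone regions and 36.7% for groups of 8 or more.

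Within each quintile of control score, dense regions had more Rad21. From the weakest to the strongest quintile, Rad21 replicate 2 was at 20.6%, 22.4%, 26.8%, 30.5% and 55.2% of dense regions, against 18.2%, 18%, 17.0%, 18.9% and 38.8% of other regions. The dense share was higher in 5 of 5 quintiles, by little in the weakest. In the strongest quintile Rad21 replicate 1 was at 13.46% against 7.73%, CTCF replicate 1 at 4.88% against 3.71% and CTCF replicate 2 at 11.98% against 7.32%. As a ratio, CTCF replicate 2 there lay between the Rad21 libraries, and CTCF replicate 1 lay below both. In the weakest and second quintiles CTCF replicate 2 was lower at dense regions. Within places relative to genes, a division chosen after values were seen, the direction for Rad21 held as well. Rad21 replicate 2 was at 46.8% of dense regions within 1 kb of a gene end, against 37.6% of others, at 31.3% against 19.1% elsewhere in a gene body, and at 34.5% against 18.7% outside gene bodies. CTCF replicate 2 gave 22.3% against 25% near gene ends, 8.04% against 5.86% in gene bodies and 11.1% against 6.34% outside them. CTCF was thus found more often at dense regions away from gene ends and not at gene ends, where dense regions were scarcer.

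**Figure D5:**
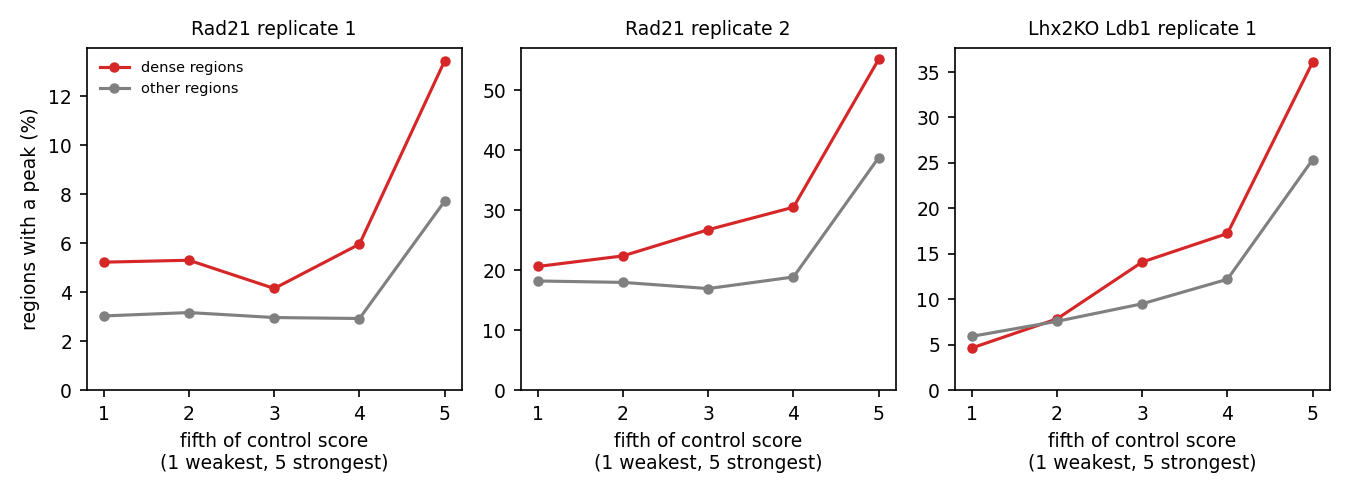
Share of regions with a peak (vertical axis, percent, scaled separately in each panel) by quintile of control score (horizontal axis, weakest to strongest) for Rad21 replicate 1, Rad21 replicate 2 and Lhx2 KO Ldb1 replicate 1; red is dense and grey other control regions. Dense regions lie above the others in every quintile for Rad21, and in the Lhx2 KO replicate 1 list from the second quintile on, with 4.65% against 5.93% in the weakest. Lhx2 KO replicate 2 is not drawn, and its share was lower at dense regions in every quintile.

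By group, 436 of 536 (81.3%) had a member with a Rad21 peak in either library, and 141 had a member with a peak in both. A CTCF peak was in 219 (40.9%), and 88 had neither factor. Each group has 4 or more regions that can hold a peak, so shares of groups exceed those of single regions. Over all control regions 23.9% had Rad21 and 9.56% had CTCF in either library. No reference share for groups was computed, so these counts are not a trait of dense groups. In Rad21 replicate 2 the strongest member of a group had a peak in 53.0% of groups, the second in 36.4%, the third in 27.4% and the weakest in 20.1%. CTCF replicate 2 gave 11.9%, 7.84%, 8.96% and 11.4% for the same members. Where exactly 1 member had a Rad21 replicate 2 peak (164 groups), it was the strongest in 79 (48.2%). Groups with most members in both Rad21 libraries were Gm10432 with 4 of 11, and Ksr2, Ppp2r2c and Ripor3 with 3 each of 7, 8 and 7. The Ripor3 group, chr2:168036917-168086958, had 2 members in the gene body. Its strongest Ldb1 region was at places 1613 and 331 in the Rad21 lists and 1359 and 598 in the CTCF lists, out of 10487, 28151, 27609 and 34210 peaks. At Ebf2, 8 of 18 members had Rad21 and 4 had CTCF, and all 4 CTCF members were among those 8. The strongest groups with neither factor were Stoml3 (7 regions), Sgpl1 (5 regions, chr10:61120380-61143605), Memo1 (7 regions, chr17:74253965-74286585) and the Ncam1 group at chr9:49691367-49728760 (6 regions). Sgpl1 encodes an enzyme that breaks down sphingosine phosphate. The Stoml3 group, at a median percentile of 91.6, was thus among the strongest for Ldb1 with no Rad21 peak at any member.

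In Lhx2 KO neurons most dense regions lacked a peak. Lhx2 KO replicate 1 had a peak at 476 dense regions (18.2%, 16.8 to 19.8), against 2412 other regions (12%, 11.5 to 12.4), with 12.7% of all control regions. Lhx2 KO replicate 2 had one at 60 dense regions (2.3%, 1.79 to 2.95), against 434 others (2.15%, 1.96 to 2.36), with 2.17% of all. The libraries thus disagreed on whether dense regions stood out, and their lists were short and unequal, at 4290 and 542 peaks. Both lists held 51 dense regions (1.95%), against 332 others (1.65%), with 1.68% over all; either list held 485 (18.6%), against 2514 (12.5%), with 13.2% over all. A missing peak in so short a list does not show that Ldb1 was absent, since read depth is unknown and the share of loss was not tested.

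For a comparison that does not use a library to choose its own regions, dense groups were rebuilt from the other control libraries, and all lists were shortened to the 542 highest-scoring peaks. The log2 ratio of shares, dense over other, was 1.17 and 0.06 in the Lhx2 KO libraries and 0.62, 0.39 and 0.48 in the held-out control libraries. The means were 0.61 and 0.50, a difference of 0.11, with an exact permutation p of 0.8 (two-sided, smallest possible 0.1; adjusted p 1 over the 4 comparisons). The control values lay between the 2 Lhx2 KO values, and without Lhx2 KO replicate 1 the difference was -0.44. Against the Olfr1507 libraries, which were not used to choose regions either, the Lhx2 KO libraries gave 1.3 and 0.10, against 0.29 and 0.54, a difference of 0.28 with an exact permutation p of 1 (smallest possible 0.333), and without Lhx2 KO replicate 1 this difference was -0.32.

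Peaks in Lhx2 KO replicate 1 were spread over groups and over their stronger members. Of 536 groups, 240 had none, 179 had 1, 73 had 2, 30 had 3 and 14 had 4 or more, with 7 at most. A peak in either KO list was found in 301 groups (56.2%) and at every member of only 1 group. Single control regions had one in 13.2% of cases, and a group has 4 or more regions that can hold it. The strongest member had a peak in KO replicate 1 in 33.4% of groups, the second in 20.5%, the third in 15.9% and the weakest in 6.16%. Where exactly 1 member had a peak, it was the strongest in 91 of 179 groups (50.8%). By quintile of control score, KO replicate 1 was at 4.65%, 7.85%, 14.1%, 17.2% and 36.1% of dense regions, against 5.93%, 7.59%, 9.52%, 12.2% and 25.4% of others. KO replicate 2, in contrast, was found less often at dense than at other regions in every quintile. In the strongest quintile it was at 7.99% of dense regions, against 8.68% of others. The excess at equal control score was thus not found in replicate 2. Near gene ends, KO replicate 1 was at 30.6% of dense regions, against 18.7% of others. In gene bodies elsewhere KO replicate 1 was at 16.1%, against 10.5%, and outside gene bodies at 20%, against 10.8%. KO replicate 2 differed little by place. It was at 2.16% against 2.31% near gene ends, 2.14% against 1.86% in gene bodies and 3.13% against 2.63% outside them.

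Named groups ranged from 7 of 8 members with a KO peak to none. At Gm46926, 7 of 8 regions had a peak in KO replicate 1 and 4 also in KO replicate 2. Its strongest region, chr5:139684710-139685055, was at place 259 of 4290 and 44 of 542 in the KO lists, and at places 47, 29 and 60 in the control lists. Ebf3 followed with 2 regions in both KO lists, its strongest at places 187 and 50, while its other 6 members had no KO peak, including 3 with control percentiles above 90. Gm10432 and Msi2 had 1 region each in both. At Ebf2, 4 of 18 members had a peak in KO replicate 1 and none in replicate 2. The strongest groups without any KO peak were Mapk4 (10 regions, chr18:73973729-74029957), Cadps2 (8 regions), Magi1 (8 regions, chr6:94124189-94171599) and Clstn2 (10 regions, chr9:97965135-98028592). Mapk4 encodes an atypical MAP kinase, Magi1 a scaffold of cell junctions and Clstn2 a synaptic cadherin. Their control percentiles reached 96.1, 96.6, 95.2 and 85.4, so groups without a KO peak included high-scoring ones. Among the starts printed above, the dense regions at Uncx, Umodl1, Emx2 and Pde4a had a peak in KO replicate 1 and the region at Clip4 had none in either KO list.

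In Olfr1507+ cells the dense regions were largely found again in the longer list. Olfr1507 replicate 1, with 5095 peaks, covered 697 dense regions (26.7%, 25.1 to 28.4), against 4277 others (21.2%, 20.6 to 21.8), with 21.8% of all control regions. Olfr1507 replicate 2, with 21250 peaks, covered 2012 dense regions (77.1%, 75.5 to 78.7), against 14729 others (73.0%, 72.4 to 73.6), with 73.5% of all. Both lists held 685 dense regions (26.3%), against 4243 others (21%), with 21.6% over all. A member in both was found in 375 groups (70.0%), a share that several regions per group raise above that of single regions. Either list held 77.6% of dense regions, against 73.2% (73.7% over all). By quintile of control score, weakest first, replicate 1 was at 0.581%, 0.462%, 3.44%, 17.7% and 83.9% of dense regions. Among others it was at 0.593%, 1.14%, 5.14%, 21.8% and 80.8%. Replicate 2 was at 38.7%, 61.0%, 75.9%, 90.0% and 96.4% of dense regions, against 38.1%, 59.7%, 79.4%, 92.3% and 98.7%. The dense share was thus higher only in the strongest quintile of replicate 1 and the weakest and second quintiles of replicate 2. At equal list length the log2 ratio of shares, dense over other, was 0.16 and 0.52 in the Olfr1507 libraries and 0.62, 0.39 and 0.48 in the held-out control libraries. The mean was 0.34 against 0.50, a difference of -0.16 with an exact permutation p of 0.5 (smallest possible 0.1; adjusted p 1), and the groups overlapped. Without Olfr1507 replicate 1 the difference was 0.02. This comparison and that of the Lhx2 KO share the 3 control libraries and are not independent.

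Within groups the Olfr1507 peaks followed control score, in that replicate 1 was at 64.7% of the strongest members, 37.3% of the second, 15.5% of the third and 2.05% of the weakest. At Ebf2 it covered 9 of 18 members and replicate 2 covered 16. At Ebf3 both lists shared 5 of 8 members and at Stoml3 5 of 7. Of the 4 strongest groups without a KO peak, Mapk4 had 3 of 10 members in both Olfr1507 lists, Cadps2 4 of 8, Magi1 5 of 8 and Clstn2 3 of 10, so each had members present in Olfr1507+ cells and in no Lhx2 KO list. The Lhx2 KO lists are shorter than the Olfr1507 lists, and the part of list length in that difference was not tested.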

How the data were processed

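Each of 11 deposited lists holds the peaks of 1 ChIP library: Ldb1 in Lhx2 KO neurons (2), Olfr1507+ cells (2) and control neurons (3), Rad21 (2) and CTCF (2). Peaks carry a whole-number score as deposited by the authors, whose scale may differ between libraries, so it served only to rank peaks within a list. The submitters' processing notes name cutadapt 1.9.1, Bowtie2 2.3.2, SAMtools 1.3.1, Picard, HOMER 4.7 and mm10. Neither the caller's threshold nor its control library is given in the sources used here, so the depth behind a peak is unknown and shares cannot be compared across lists of different length.

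Regions, chains and shares were computed with Python 3.11.15, numpy 2.4.6, pandas 2.3.3 and scipy 1.17.1, and drawn with matplotlib 3.10.9. A peak was at a region if they shared 1 base. The score percentile of a region is its mean over the 3 control lists, and a summed rank adds this over the members of a group. Shares have 95% Wilson intervals, which cover counting error only. Gene positions and start windows are RefSeq's, GRCm38.p6, the assembly also called mm10. On chromosomes other than Y, 340 genes that end before position 3 Mb were left out as lying on scaffolds. A receptor cluster is a run of at least 3 receptor genes at most 300 kb apart, widened by 100 kb on either side. Libraries, not regions, were the replicates in 4 two-sided exact permutation tests, with Benjamini-Hochberg adjustment; the labels do not say that libraries came from separate animals, so these p-values measure only the spread between libraries. The scripts were checked on simulated peaks.

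Groups were named by the gene holding most members. The text names the 10 groups with the highest summed rank, the 5 with most members, up to 4 for each gene list, any in a receptor cluster, up to 4 each by presence in the Lhx2 KO, Rad21 and CTCF lists, the 5 genes with most dense regions, and printed windows from the 6 with the strongest dense region. Windows on chromosome 18 were left out of those 6. The members, gene lists and tests were chosen with earlier results of these data known. Alternatives changed the gap, the group size, the libraries, the list lengths and the pairing of replicate numbers. The RNA and input samples were not analysed here, and 2 RNA samples whose labels conflict were given no group.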

Additional observations from a re-analysis of the deposited data

How the results depend on the processing

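The number of dense regions, 2609 in 536 groups, moved little with how peaks were linked: 2529 in 520 with a reciprocal overlap of at least 50%, and 2574 in 528 with centres within 200 bases. It moved by over 1.5 times with the other settings tried, except without control replicate 3. Requiring peaks in all 3 control libraries gave 938 regions in 194 groups, a largest gap of 5 kb gave 170 in 41 and of 25 kb 6723 in 1177, groups of 3 or more gave 5057 in 1352 and of 6 or more 797 in 111, and control lists cut to the shortest gave 1290 in 262. Leaving out a control library gave 1016 to 2273 regions in 209 to 471 groups; it was 1053 in 219 without replicate 1 and 1016 in 209 without replicate 2.

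The mean excess of Rad21 at dense over other regions stayed positive under all 14 settings tried, between 3.39 and 11.4 percentage points, as did that of the Lhx2 KO lists, between 0.149 and 6.29. In the strongest quintile the mean Lhx2 KO excess came from replicate 1, since the share in replicate 2 was lower at dense regions. The small CTCF excess was 1.54 points with all 3 control libraries, 0.141 with a 25 kb gap, 0.308 with groups of 3 or more, 2.06 with lists cut to the shortest, 2.92 in the strongest quintile and 0.602 to 1.47 when a library was left out; with a 5 kb gap it reversed to -0.818. The Olfr1507 excess was 1.49 points with a 5 kb gap, 3.69 with 25 kb, 8.68 with groups of 6 or more, 1.08 with lists cut to the shortest, 0.402 in the strongest quintile and 3.43 to 5.69 when a library was left out. The cause of these shifts was not tested.

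Rad21 minus CTCF, on the log2 scale, stayed positive under all 17 settings, between 0.32 and 1.27. None of these settings compared regions within a quintile of control score. In the strongest quintile the ratio of shares, dense over other, was higher for CTCF replicate 2 than for Rad21 replicate 2. Lhx2 KO minus control reversed with a 5 kb gap, to -0.53 (exact permutation p 0.1, the smallest possible), and ranged from -0.44 to 0.19 when a KO library was left out. Lhx2 KO minus Olfr1507 reversed with a 5 kb gap, to -0.066, and ranged from -0.32 to 0.41 when a library was left out. Olfr1507 minus control reversed with groups of 6 or more, to 0.067, and with full lists, to 0.12, and ranged from -0.34 to 0.023 when an Olfr1507 library was left out. The labels do not say that replicate numbers pair libraries; with the number as a replicate block the differences were 0.10, -0.17, 0.28 and 0.59, in the order of Lhx2 KO minus control, Olfr1507 minus control, Lhx2 KO minus Olfr1507 and Rad21 minus CTCF, with no exact p below 0.5, the smallest possible. The short Lhx2 KO lists and unknown depth limit what an absent peak can show.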

Other observations

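A pair of dense groups held a strongest region that stood much higher in Lhx2 KO replicate 1 than in the control lists; both were picked out after their values were seen. At Gm33162, in a group on chromosome 3, the region chr3:101528077-101528420 was at place 14 of 4290 peaks in Lhx2 KO replicate 1 and at places 176, 218 and 243 in the control lists, and it was also at place 481 of 542 in Lhx2 KO replicate 2. At Gnal, the olfactory G protein alpha subunit, the region chr18:67169569-67169935 was at place 28 in Lhx2 KO replicate 1, had no peak in replicate 2, and was at places 1166, 1796 and 1045 in the control lists. Places come from lists of different length and show no change in binding.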
